A study of Mus musculus with 12 samples.

Results

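The 10 genes described here belong to the NRF2 pathway and to iron handling, and were measured in RAW264.7 cells, a mouse macrophage line: Nfe2l2, Keap1, Hmox1, Nqo1, Gclm, Srxn1, Txnrd1, Fth1, Tfrc and Slc40a1. They were taken by name, with earlier results of these data known, and are 10 of 35865 genes to which the quantified transcripts could be assigned. RNA-Seq of polyadenylated RNA was available for 12 libraries in 4 groups of 3. All cells had received extracellular vesicles (EVs) from MS-1 cells, a mouse endothelial line, for 48 h at 3 µg of vesicle protein per ml, and the 4 groups differed in the miRNA mimic that had been electroporated into the vesicles. In the groups called miR-EVs the mimic was miR-222-3p, miR-142-5p or miR-183-5p. In ctrl-EVs it was the control mimic cel-miR-67, a miRNA of the worm. No group without vesicles and no group with vesicles that had not been electroporated was analysed here. In GRCm38, Hmox1 (ENSMUSG00000005413) lies at chr8:75093621-75100589 on the plus strand and Tfrc (ENSMUSG00000022797) at chr16:32608920-32632794 on the plus strand, Txnrd1 (ENSMUSG00000020250) at chr10:82833951-82897712 on the plus strand and Fth1 (ENSMUSG00000024661) at chr19:9980598-9985098 on the plus strand. The titles number the libraries of each group from 1 to 3. What a number stands for is not stated. The study's methods say in general that experiments were repeated, without saying whether these libraries came from separate cultures, so p-values measure the spread between these libraries, which may be technical.

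NRF2, encoded by Nfe2l2, is a transcription factor that turns on genes of antioxidant defence through a short DNA motif, the antioxidant response element (ARE). KEAP1 holds it down by passing it to ubiquitin ligation and proteasomal decay, and oxidants or electrophiles that modify KEAP1 release it, so much of its control lies in the protein and not in its mRNA. Iron enters most cells with transferrin through the transferrin receptor (Tfrc), is stored in ferritin (Fth1 and Ftl1 encode its heavy and light chains) and leaves through ferroportin (Slc40a1). Macrophages also recover iron from haem, which haem oxygenase 1 (Hmox1) opens. Iron regulatory proteins bind a hairpin in mRNA, the iron-responsive element (IRE), when iron is scarce. They block translation when it lies before the coding sequence and protect the mRNA when it lies behind it.

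The hairpins are shown first, because they are what the iron genes share and because those of Tfrc lie in its longest transcript, which is described apart. A search of each member's most abundant coding transcript for an unpaired C, 5 pairs of stem bases (G paired with T allowed), the loop CAGTGN and the other arm of the stem found them in Fth1, Tfrc and Slc40a1 and in none of the 7 other members. Among 13173 tested genes with a coding transcript, 0.144% held a match in the 5′ untranslated region and 0.645% in the 3′ one. Capitals mark the unpaired C and the first 5 bases of the loop, in DNA letters on the mRNA strand of GRCm38.
Fth1, 5′ region, chr19:9982732-9982760, plus strand: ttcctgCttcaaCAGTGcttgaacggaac
Slc40a1, 5′ region, chr1:45925465-45925493, minus strand: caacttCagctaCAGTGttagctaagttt
Tfrc, 3′ region, chr16:32631219-32631247, plus strand: aattatCggaagCAGTGccttccataatt
Tfrc, 3′ region, chr16:32631710-32631738, plus strand: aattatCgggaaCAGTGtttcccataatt
Tfrc held 4 matches in its 3′ region, of which the first and the last are printed. Ftl1 held 1 in its 5′ region.

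The ARE was searched as TGACNNNGC on both strands of the RefSeq promoter windows of GRCm38.p6, which run from 250 bases before to 50 bases after a start site. It stood in 12.4% of 32851 windows, and in 16.2% of 10353 tested genes with a window. Of the members, 8 have a window (Hmox1 and Slc40a1 do not), and 4 of them hold the motif: Nfe2l2, Gclm, Srxn1 and Txnrd1. Capitals mark the motif, on the gene's strand.
Nfe2l2, chr2:75704885-75704913, minus strand: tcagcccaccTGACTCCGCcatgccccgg
Gclm, chr3:122245413-122245441, plus strand: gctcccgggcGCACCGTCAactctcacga
Srxn1, chr2:152105542-152105570, plus strand: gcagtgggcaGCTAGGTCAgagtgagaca
Txnrd1, chr10:82859104-82859132, plus strand: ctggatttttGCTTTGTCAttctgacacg
In Gclm, Srxn1 and Txnrd1 it reads on the opposite strand. Txnrd1 has 3 windows and 1 of them holds it. A match is a string of letters and no sign of binding, and a window without one says nothing of more distant elements.

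The mature miRNAs that the 3 mimics are named for are shown with their seeds (bases 2 to 8) in capitals, from the RefSeq table of GRCm38.p6. The mimics were designed duplexes, whose own sequences are not shown and can differ from these, as in length for miR-222-3p.
mmu-miR-142a-5p, chr11:87756867-87756887, plus strand: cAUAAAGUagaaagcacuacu
mmu-miR-183-5p, chr6:30169711-30169732, minus strand: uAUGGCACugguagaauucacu
mmu-miR-222-3p, chrX:19146901-19146923, minus strand: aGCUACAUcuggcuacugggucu
The 3 seeds differ from each other. A 7-base match to the seed stood in the 3′ untranslated region of 1 member for each miRNA: Nfe2l2 for miR-142-5p, Hmox1 for miR-183-5p and Tfrc for miR-222-3p, with 1 match each. Such matches stood in 13.9%, 8.95% and 9.31% of 12675 tested genes, in that order. When every annotated transcript was searched, Gclm was added for miR-183-5p and for miR-222-3p.

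The libraries held 16.3 to 22.97 M estimated counts, and 13906 genes passed a filter of at least 10 counts in at least 3 libraries. The 8 macrophage markers examined (Adgre1, Cd68, Csf1r, Lyz2, Itgam, Ptprc, Cd14 and Spi1) were all present, with Cd68 at 321 to 416 TPM and Ptprc at 201 to 290 TPM. Their summed level was 845 to 892 TPM in the libraries numbered 2, 1025 to 1107 TPM in those numbered 1 and 1089 to 1132 TPM in those numbered 3. Of 10 endothelial markers, the cells that had shed the vesicles being endothelial, Sox17 was at 0 in every library, Emcn, Kdr, Tek, Tie1, Esam and Erg stayed under 1 TPM, Cdh5 reached 1.502 TPM, Pecam1 lay at 2.36 to 4.14 TPM and Egfl7 at 10.1 to 26.2 TPM. Their summed level was 15.7 to 27.2 TPM in ctrl-EVs and 13.4 to 30.3 TPM in miR-EVs. By number it was 24.4 to 28.4 TPM, 13.4 to 16.4 TPM and 21.4 to 30.3 TPM for numbers 1, 2 and 3. The part of either marker list in the results was not tested.

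Compared per length, as TPM (a share of all transcript molecules), Fth1 was by far the most abundant member, with a lowest, median and highest value over the 12 libraries of 2441, 3503 and 5922 TPM. Hmox1 followed with a median of 135 TPM, then Nfe2l2 with 90.04, Txnrd1 with 81.0, Tfrc with 53.0, Gclm with 45.0, Keap1 with 44.3, Srxn1 with 22.8 and Slc40a1 with 8.52 TPM. The ranges of neighbours in this order overlapped from Hmox1 down to Srxn1 and also between Srxn1 and Slc40a1, so only Fth1 stood clear above the rest. Nqo1, a quinone reductase and a standard NRF2 target, had 0 to 7 estimated counts per library and at most 0.305 TPM, failed the count filter and was not tested. A count of 3 is taken here as the smallest detectable signal, and Nqo1 was above it in 6 of the 12 libraries.

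**Figure D1:**
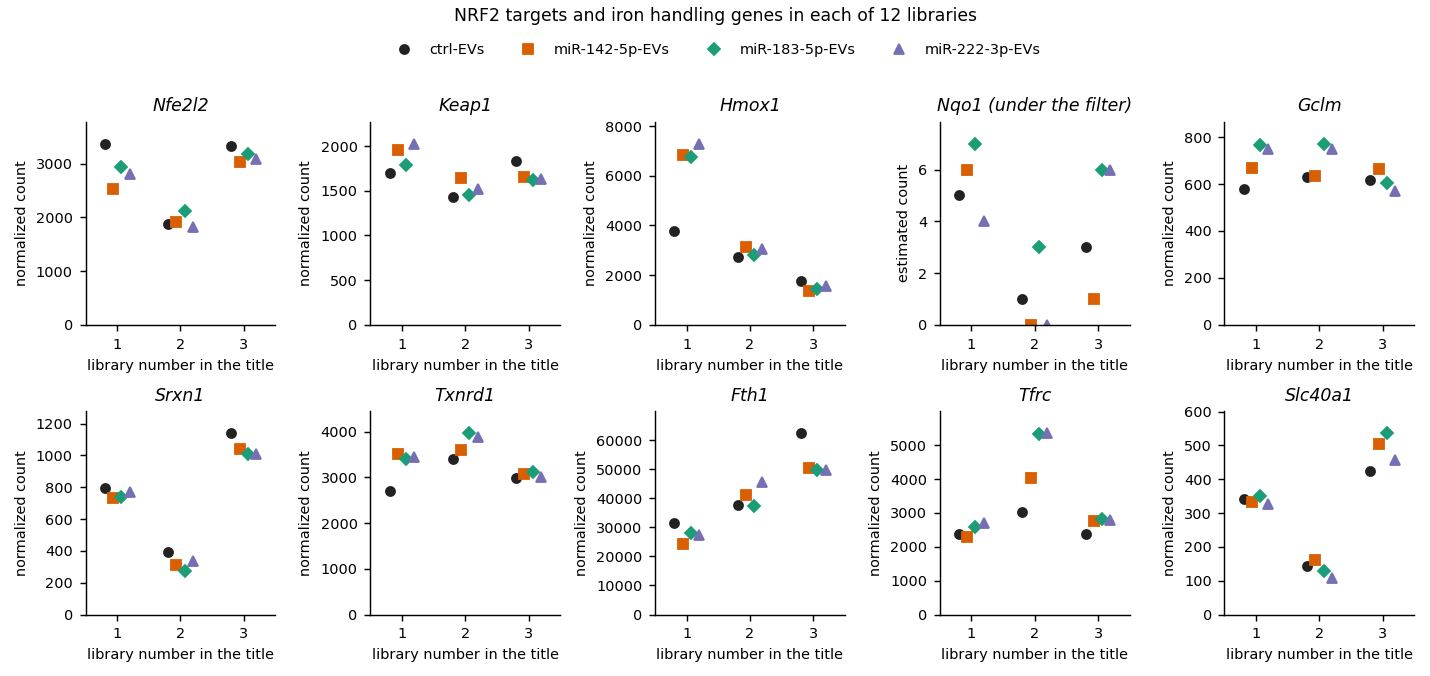
Normalized counts (y axis, from 0) of each gene in each of 12 libraries, by the number in the library's title (x axis), with colour and shape for the 4 groups. Nqo1 is given as estimated counts. Hmox1 in ctrl-EVs library 1 (3795) lies apart from the other libraries numbered 1 (6760 to 7294), while Srxn1 and Slc40a1 are lowest in all 4 libraries numbered 2.

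The first question was whether vesicles loaded with a miRNA changed these genes against ctrl-EVs. Each miR-EVs group was compared with ctrl-EVs, then all 9 miR-EVs libraries with the same 3 ctrl-EVs libraries. The comparisons share their controls and are not independent of each other. None of the 9 tested members was called (DESeq2, adjusted p under 0.05 over all tested genes). None had an unadjusted p under 0.05, and edgeR called none. Over all genes the share called was 0% for miR-222-3p-EVs, 0% for miR-183-5p-EVs, 0.00719% for miR-142-5p-EVs, 0% for all miR-EVs and 0.00719% for any difference among the 4 groups. In bulk RNA of this kind fewer cells of a type and less RNA per cell cannot be told apart.

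Libraries with the same number resembled each other across groups, so the fits were repeated with the title number as a block. Again none of the 9 members was called, where the share of all genes called was 0.0288% for miR-222-3p-EVs, 0.410% for miR-183-5p-EVs, 0.0575% for miR-142-5p-EVs, 1.63% for all miR-EVs and 0.101% for any difference among the groups. In the paired fit of all miR-EVs 3 members had an unadjusted p under 0.05: Tfrc, Txnrd1 and Srxn1. So did 1896 of all 13906 tested genes. edgeR with the block called none and had the same number of members at an unadjusted p under 0.05, with 1868 of the 13906 genes.

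Among the regulators, Nfe2l2 had 3372, 1873 and 3320 normalized counts in ctrl-EVs libraries 1, 2 and 3. It had 2528, 1906 and 3022 in miR-142-5p-EVs, 2944, 2127 and 3182 in miR-183-5p-EVs and 2804, 1818 and 3086 in miR-222-3p-EVs. The groups overlapped, and the libraries numbered 2 were lowest in all of them. The log2 difference between all miR-EVs and ctrl-EVs was -0.13 ± 0.23 (SE) without the block and -0.12 ± 0.08 with it. For miR-142-5p, whose seed match Nfe2l2 carries, it was -0.18 ± 0.10 with the block (adjusted p = 0.848). For miR-222-3p and miR-183-5p, without such a match, it was -0.14 ± 0.10 and -0.03 ± 0.10. For the members carrying the other matches the log2 difference with the block was 0.15 ± 0.18 for Hmox1 with miR-183-5p and 0.40 ± 0.13 for Tfrc with miR-222-3p. The Hmox1 value joins unlike log2 ratios to the control of the same number, 0.83, 0.04 and -0.32 for numbers 1, 2 and 3. Whether a seed match played a part was not tested. Keap1 moved less than Nfe2l2, with 1699, 1434 and 1832 normalized counts in ctrl-EVs and 1453 to 2027 in miR-EVs. Its paired log2 difference was 0.03 ± 0.08, with a 95% interval from -0.12 to 0.18.

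Txnrd1 encodes thioredoxin reductase 1, which keeps thioredoxin reduced. It had 2713, 3403 and 2990 normalized counts in ctrl-EVs, 3519, 3604 and 3063 in miR-142-5p-EVs, 3394, 3965 and 3112 in miR-183-5p-EVs and 3441, 3890 and 3009 in miR-222-3p-EVs. Each of the 9 miR-EVs libraries was above the control of its own number, by between 0.01 and 0.38 on the log2 scale. For number 3 the excess was at most 0.06. Such tallies, here and below, use 3 control libraries and are not 9 independent comparisons. How many of all genes were as one-sided was not counted. The paired log2 difference of Txnrd1 was 0.18 ± 0.06 (adjusted p = 0.102), which did not pass. Srxn1, for sulfiredoxin, which repairs oxidized peroxiredoxins, went the other way. It had 794, 392 and 1139 normalized counts in ctrl-EVs, 734, 312 and 1038 in miR-142-5p-EVs, 741, 275 and 1010 in miR-183-5p-EVs and 770, 337 and 1009 in miR-222-3p-EVs. All 9 miR-EVs libraries were below the control of their number, and the paired log2 difference was -0.19 ± 0.08 (adjusted p = 0.180). Gclm, the modifier subunit of the enzyme that starts glutathione synthesis, lay between 571 and 772 normalized counts in all 12 libraries, with a paired log2 difference of 0.17 ± 0.10 (adjusted p = 0.375).

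Tfrc had 2387, 3024 and 2394 normalized counts in ctrl-EVs libraries 1, 2 and 3. In miR-142-5p-EVs it had 2284, 4046 and 2759, in miR-183-5p-EVs 2590, 5344 and 2812, and in miR-222-3p-EVs 2704, 5356 and 2805. It was above the control of the same number in 8 of 9 miR-EVs libraries, the exception being miR-142-5p-EVs library 1, and most so among the libraries numbered 2. The paired log2 difference for all miR-EVs was 0.32 ± 0.11 (adjusted p = 0.0985), for miR-183-5p-EVs 0.38 ± 0.13 (adjusted p = 0.147), for miR-222-3p-EVs 0.40 ± 0.13 (adjusted p = 0.300) and for miR-142-5p-EVs 0.18 ± 0.13 (adjusted p = 0.935). Fth1 had 31583, 37663 and 62327 normalized counts in ctrl-EVs and 24378.5 to 50496 in miR-EVs, with 7 of 9 miR-EVs libraries below their control and a paired log2 difference of -0.15 ± 0.09 (adjusted p = 0.378). Slc40a1 had 342, 144 and 423 normalized counts in ctrl-EVs and 108 to 536 in miR-EVs, 5 of 9 above their control, with a paired difference of 0.05 ± 0.12 (adjusted p = 0.892).

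**Figure D2:**
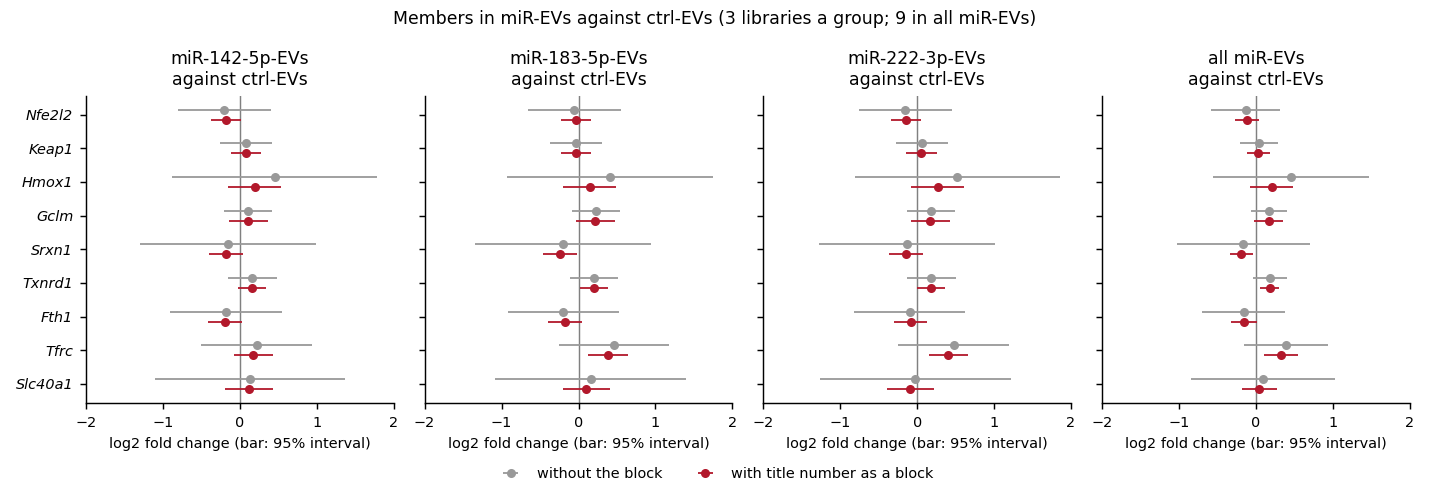
Log2 fold change against ctrl-EVs (x axis, bars are 95% intervals) of the 9 tested genes, without the block in grey and with the title number as a block in red. The intervals narrow with the block, for Hmox1 from -0.55 to 1.48 without it to -0.07 to 0.48 with it in all miR-EVs, and no gene passed an adjusted p of 0.05.

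These paired results leaned on single controls. Without ctrl-EVs library 1, the paired Tfrc difference for all miR-EVs was 0.45 (adjusted p = 0.0193), for miR-183-5p-EVs 0.51 (adjusted p = 0.00894) and for miR-222-3p-EVs 0.53 (adjusted p = 0.0344), and without miR-142-5p-EVs library 2 it was 0.35 for all miR-EVs (adjusted p = 0.0486). Without ctrl-EVs library 2, Fth1 was lower in all miR-EVs by a log2 difference of -0.28 (adjusted p = 0.0270). Without ctrl-EVs library 3, Hmox1 was higher in all miR-EVs by 0.49 (adjusted p = 0.00901) and in miR-222-3p-EVs by 0.55 (adjusted p = 0.0208), and Txnrd1 was higher in all miR-EVs by 0.25 (adjusted p = 0.00778). Which member was called thus changed with the control that was left out. Calls over all 13906 tested genes rose in the same fits. For all miR-EVs they rose from 227 to 282, 399 and 468 without ctrl-EVs libraries 1, 2 and 3. Without miR-142-5p-EVs library 2 they rose to 401. Without ctrl-EVs library 1 they rose from 57 to 221 for miR-183-5p-EVs and from 4 to 12 for miR-222-3p-EVs. The latter had 90 without ctrl-EVs library 3.

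Hmox1 differed most between the numbers in its response. It had 3795 normalized counts in ctrl-EVs library 1 against 6845, 6760 and 7294 in the libraries numbered 1 of miR-142-5p-EVs, then miR-183-5p-EVs, then miR-222-3p-EVs. Among the libraries numbered 2 it had 2721 in ctrl-EVs and 3124, 2795 and 3069 in miR-EVs. Among those numbered 3 it had 1776 in ctrl-EVs and 1369, 1426 and 1550 in miR-EVs. The miR-EVs libraries were thus 1.78 to 1.92 times the control for number 1, 1.03 to 1.15 times for number 2 and 0.771 to 0.873 times for number 3, with the control outside the range of the 3 miR-EVs libraries each time, and on opposite sides of it for numbers 1 and 3.

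A test of whether the change from ctrl-EVs to miR-EVs differed between numbers was added after these values were seen. It called Hmox1 (adjusted p = 1.21e-11, with 9.15% of all genes called) and no other member. Hmox1 was the 10th of 13906 genes by p. edgeR called it too (adjusted p = 0.00447). Within number 1 the log2 difference was 0.88 ± 0.10 (adjusted p = 1.63e-14), within number 2 it was 0.14 ± 0.10 (adjusted p = 0.575) and within number 3 it was -0.29 ± 0.11 (adjusted p = 0.0463). Number 1 differed from number 2 by 0.74 ± 0.15 (adjusted p = 0.000246) and from number 3 by 1.17 ± 0.15 (adjusted p = 1.77e-12). Within number 1 Txnrd1 was called as well, at 0.35 ± 0.09 (adjusted p = 0.00402), so that 2 members were called where 3.68% of all genes were. Within number 2 Tfrc was the only member called, at 0.70 ± 0.14 (adjusted p = 0.000744), where 1.51% of all genes were called. Within number 3 Hmox1 and Fth1 were called, Fth1 at -0.32 ± 0.11 (adjusted p = 0.0294), where 8.06% of all genes were.

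Each number has 1 ctrl-EVs library, so a change within a number and a control library that stands apart cannot be told apart, and the model assumes that this library varies like the others. The 3 miR-EVs libraries of a number carry different mimics and were fitted as replicates of each other. The SE and p-values within and between numbers thus rest on the spread between mimics and not on repeated controls. Leaving out any 1 miR-EVs library kept Hmox1 called within number 1. Within number 3 the Hmox1 call was lost on leaving out any of 6 miR-EVs libraries (adjusted p up to 0.152), and the Txnrd1 call within number 1 was lost without miR-142-5p-EVs library 1 (adjusted p = 0.0582). The Fth1 call within number 3 was lost without any of the 3 miR-EVs libraries of that number (adjusted p up to 0.0705). The difference between numbers was not called for Fth1 (adjusted p = 0.0505) or Tfrc (adjusted p = 0.0557), and with TMM scaling Fth1 was called.

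**Figure D3:**
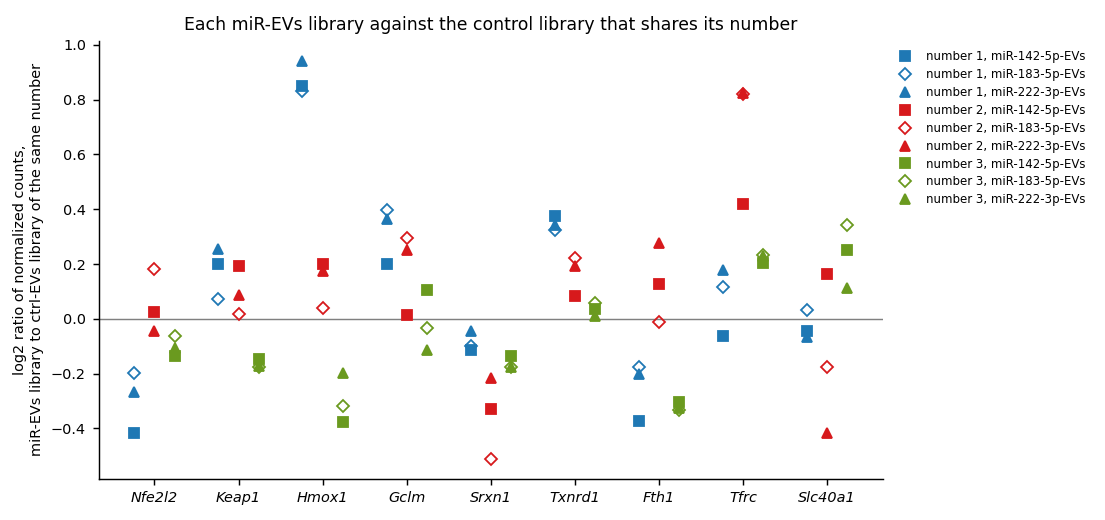
Log2 ratio (y axis) of normalized counts in each miR-EVs library to the ctrl-EVs library of the same number, for 9 genes (x axis), with colour for the number and shape for the miRNA. For Hmox1 the ratios are 0.83 to 0.94 for number 1 and -0.38 to -0.20 for number 3, and for Tfrc 0.42 to 0.82 for number 2.

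Genes that act with Hmox1 and Txnrd1 were counted in 8 lists of 85 genes of the 2 pathways, of which 75 were tested. Within number 1, 10 list genes were higher in miR-EVs than in the single control library and 1 was lower, where 2.24% of all genes were higher and 1.44% lower. The higher ones were Hmox1, Txnrd1, Slc7a11 (the cystine importer, 0.56 ± 0.14), Gsr (glutathione reductase, 0.74 ± 0.17), Prdx1 (peroxiredoxin 1, 0.46 ± 0.10), the NADPH-supplying enzymes G6pdx (0.60 ± 0.12), Pgd (0.50 ± 0.09) and Idh1 (0.34 ± 0.10), Ephx1 (epoxide hydrolase 1, 0.73 ± 0.16) and Pcbp1 (an iron chaperone, 0.31 ± 0.09), all as log2 differences ± SE with adjusted p from 1.63e-14 to 0.0157. G6pdx had 1389 normalized counts in ctrl-EVs library 1 and 2037, 2194 and 2079 in the 3 miR-EVs libraries of that number. The lower one was Sqstm1, for p62, an autophagy adaptor that also binds KEAP1, at -0.55 ± 0.13. It had 36507 normalized counts in the control and 22214, 29341 and 23275 in the others.

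Within number 3 the count was 4 higher and 8 lower, of the same 75, where 4.80% of all genes were higher and 3.26% lower, so that more list genes were lower than higher while over all genes more were higher. Hmox1, Ephx1, Fth1, Gpx1 (glutathione peroxidase 1, -0.48 ± 0.10), Gpx4, Txn1, Prdx6 and Slc3a2 were lower. Slc7a11 was higher there too, at 0.59 ± 0.15, as were Gsk3b (0.67 ± 0.10), Nfe2l1 and Ireb2. Within number 2, 2 were higher (Tfrc and Gpx1) and 1 was lower (Chac1, which degrades glutathione, -0.86 ± 0.21), where 0.769% of all genes were higher and 0.741% lower. Each of these calls rests on 1 control library. The change differed between the numbers, by the same added test, for 20 of the 75 list genes against 9.15% of all genes.

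Across the 3 numbers together, the paired fit called 2 list genes in all miR-EVs, where 1.63% of all genes were called, and neither is a member. Slc7a11 had 938, 208 and 516 normalized counts in ctrl-EVs, 1421, 243 and 742 in miR-142-5p-EVs, 1304, 228 and 733 in miR-183-5p-EVs and 1439, 220 and 851 in miR-222-3p-EVs. Each miR-EVs library was above the control of its number, and the log2 difference was 0.47 ± 0.10 (adjusted p = 0.000917). Fbxl5 encodes the iron-sensing subunit of the ligase that marks iron regulatory protein 2 for decay. It had 1722, 2674 and 1270 normalized counts in ctrl-EVs, 1898, 3047 and 1599 in miR-142-5p-EVs, 2074, 3427 and 1583 in miR-183-5p-EVs and 1846, 3295 and 1468 in miR-222-3p-EVs. It was higher by 0.25 ± 0.06 in all miR-EVs (adjusted p = 0.0163) and by 0.31 ± 0.09 in miR-183-5p-EVs (adjusted p = 0.0468). Without the block neither was called, and edgeR with the block called none of the list genes.

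The second question was how the members varied between the numbers, where most of the spread lay for all tested members but Gclm. Title number accounted for 96.5% to 97.3% of the summed squares of log2 values for Slc40a1 and Srxn1, for 89.6% to 91.8% for Fth1, Nfe2l2 and Hmox1, for 73.6% for Tfrc, 68.5% for Keap1 and 57.5% for Txnrd1, and for 27.9% for Gclm. Group accounted for 29.4% for Gclm, 26.1% for Txnrd1, 16.5% for Tfrc and at most 8.66% for the others. Of the 9 tested members 8 were called for any difference among the 3 numbers, all but Gclm, where 69.4% of all genes were called. Differences between numbers were therefore the rule in these libraries and not particular to the members.

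Srxn1, Slc40a1 and Nfe2l2 were lowest in number 2. Srxn1 had 734 to 794 normalized counts in the libraries numbered 1, 275 to 392 in those numbered 2 and 1009 to 1139 in those numbered 3, with no overlap. Number 2 was lower than number 1 by a log2 difference of -1.21 ± 0.10 and number 3 was higher than number 2 by 1.68 ± 0.10, which is 3.20-fold. Slc40a1 had 327 to 350, 108 to 162 and 423 to 536 normalized counts, again without overlap, and differed by -1.33 ± 0.14 and 1.83 ± 0.14. Nfe2l2 had 2528 to 3372, 1818 to 2127 and 3022 to 3320, so that number 2 stood below both others, which overlapped. It differed by -0.59 ± 0.09 between numbers 2 and 1 and by 0.71 ± 0.09 between 3 and 2.

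Hmox1 and Fth1 stood in opposite order. Hmox1 had 3795 to 7294 normalized counts in number 1, 2721 to 3124 in number 2 and 1369 to 1776 in number 3, without overlap, and number 3 was lower than number 1 by -1.98 ± 0.15, a fold of 0.253. Fth1 went in the opposite order, with 24378.5 to 31583, 37392 to 45650 and 49534 to 62327 normalized counts and a log2 difference of 0.93 ± 0.10 between numbers 3 and 1. Tfrc was highest in number 2, at 3024 to 5356 normalized counts against 2284 to 2704 in number 1 and 2394 to 2812 in number 3. It differed by 0.81 ± 0.11 between numbers 2 and 1 and by -0.70 ± 0.11 between 3 and 2.

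The other members moved little. Txnrd1 was higher in number 2 than in number 1 by 0.19 ± 0.08 (adjusted p = 0.0326) and lower in number 3 than in number 2 by -0.28 ± 0.08. Keap1 was lower in number 2 than in number 1 by -0.30 ± 0.09 (adjusted p = 0.00147). Gclm was called in no pair of numbers. For Txnrd1 the first of these calls was lost with edgeR (adjusted p = 0.0624), TMM scaling (0.0536), no count filter (0.0566) and no group term (0.0520), and on leaving out any of 9 of the 12 libraries, with an adjusted p of up to 0.169 without ctrl-EVs library 1.

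By pair of numbers, 3 members were higher and 5 lower in number 2 than in number 1, where 28.0% of all genes were higher and 29.9% lower. In number 3 against number 1, 3 were higher (Fth1, Slc40a1 and Srxn1) and 1 lower (Hmox1), where 10.5% of all genes were higher and 12.9% lower. In number 3 against number 2, 4 were higher and 3 lower, where 31.0% of all genes were higher and 30.7% lower.

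**Figure D4:**
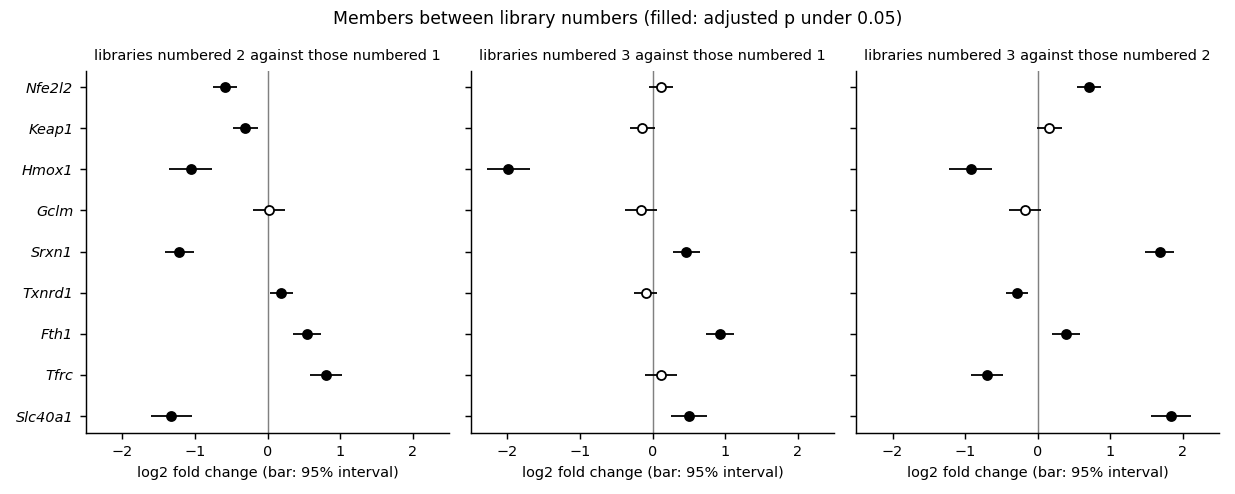
Log2 fold change (x axis, bars are 95% intervals) of the 9 tested genes between the libraries numbered 1, 2 and 3, with 4 libraries of each number. Filled points have an adjusted p under 0.05. Srxn1, Slc40a1 and Nfe2l2 are lower in number 2 than in both others, and Hmox1 is lower in number 3 than in both others.

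Transcript makeup differed between the numbers as well. For Slc40a1 the most abundant transcript held 65.5% to 87.8% of the gene's TPM in number 1, 53.3% to 82.9% in number 2 and 84.2% to 97.1% in number 3. For Tfrc, Salmon splits the Tfrc reads among 7 transcripts, and the longest, of 4890 bases, is the one with the 4 IRE matches described above. It held 51.5% to 59.3% of Tfrc TPM in the libraries numbered 2, 70.5% to 81.5% in those numbered 1 and 79.2% to 82.8% in those numbered 3. Its own level was 30.3 to 49.1 TPM in number 2 (median 40.7), 32.0 to 38.96 TPM in number 1 (median 34.4) and 34.6 to 46.8 TPM in number 3 (median 44.5). The 6 other transcripts together had 20.8 to 40.2 TPM in number 2, 8.19 to 14.4 TPM in number 1 and 7.79 to 11.8 TPM in number 3. The high Tfrc of number 2 was thus counted mainly in the other transcripts, which include retained introns.

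Against the treatment, the longest Tfrc transcript had 32.0, 30.3 and 34.6 TPM in ctrl-EVs libraries 1, 2 and 3. It had 34.5, 38.6 and 44.2 TPM in miR-142-5p-EVs, 38.96, 42.7 and 44.7 TPM in miR-183-5p-EVs and 34.4, 49.1 and 46.8 TPM in miR-222-3p-EVs. All 9 miR-EVs libraries were above the control of their number, by 1.08 to 1.62 times. The lowest of them, at 34.4 TPM, was just below the highest control, at 34.6 TPM. This transcript was looked at after the gene's values were seen and was not tested.

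**Figure D5:**
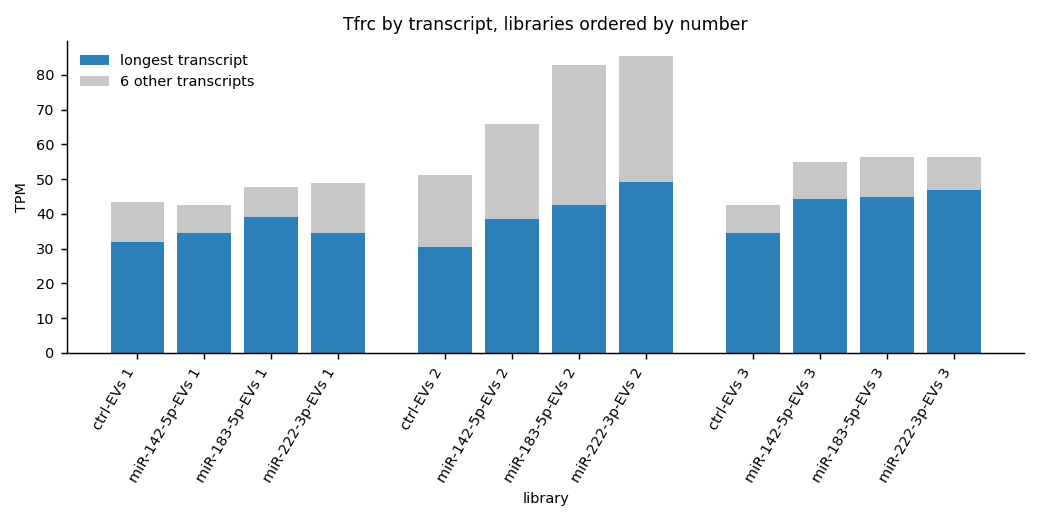
TPM of Tfrc (y axis, from 0) in each library, ordered by number, split into its longest transcript in blue and its 6 other transcripts in grey. The other transcripts reach 20.8 to 40.2 TPM in the libraries numbered 2 and at most 14.4 TPM in the rest.

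Transcripts without a coding sequence took a larger share of TPM in the libraries numbered 2 over all protein-coding genes, at 13.2% to 14.5% against 10.5% to 11.3% in number 1 and 10.2% to 11.5% in number 3. The same held for 4 members without overlap with either other number: Nfe2l2 (13.2% to 16.0% against 4.19% to 5.71% and 4.48% to 6.59%), Hmox1 (9.35% to 13.1% against 3.41% to 5.67% and 3.08% to 4.85%), Txnrd1 (9.17% to 13.1% against 1.96% to 4.84% and 3.37% to 7.78%) and Tfrc (24.9% to 28.7% against 9.30% to 13.2% and 9.18% to 18.4%). How many of all genes lay apart in this way was not counted, so it cannot be called particular to these members. Fth1 went the other way, at 1.80% to 2.43% in number 2 against 2.82% to 3.89% in number 1, and overlapped number 3 (2.14% to 2.51%). For Keap1, Gclm, Srxn1 and Slc40a1 number 2 overlapped at least 1 other number. The part of transcripts without a coding sequence in the differences between numbers was not tested. Counting only coding transcripts, Nfe2l2 still had 41.9 to 48.4 TPM in number 2 against 77.3 to 101 and 96.4 to 102 TPM. Txnrd1 had 69.2 to 71.5 TPM in number 2 against 64.1 to 83.0 and 67.8 to 79.1 TPM, and it overlapped in the same way over all its transcripts, with 76.2 to 82.3 TPM against 65.4 to 87.1 and 70.2 to 82.8 TPM. Its median in coding transcripts was 70.6 TPM in number 2 against 79.6 and 75.1 TPM. Number 2 was thus lowest by this measure, whereas the fit of normalized counts put it above both other numbers. Tfrc had 38.2 to 62.2 TPM in coding transcripts in number 2 against 37.7 to 44.3 and 34.6 to 51.3 TPM.

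Of the 75 tested list genes 64 differed among the numbers, where 69.4% of all genes did, by list 9 of 12 NRF2 regulators, 11 of 14 genes of the glutathione and thioredoxin systems, 11 of 12 quinone, haem and conjugation enzymes, 5 of 6 NADPH-supplying enzymes, 5 of 5 genes of iron storage, 13 of 14 of iron uptake and transport, 3 of 5 of iron sensing and 7 of 7 ferroptosis-linked genes. In number 2 against number 1, 25 were higher and 29 lower, in number 3 against number 1, 14 and 24, and in number 3 against number 2, 23 and 29. The median log2 difference over the lists was -0.04, -0.13 and -0.07, against 0.01, 0.01 and -0.01 over all tested genes.

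Beyond the members, the list genes with the lowest p between numbers 2 and 1 included Slc7a11 (-2.48 ± 0.12), Blvra (biliverdin reductase A, the step after haem oxygenase, -1.903 ± 0.12), Chac1 (-1.73 ± 0.19), Sqstm1 (-1.01 ± 0.10), Idh1 (-0.72 ± 0.09), the mitochondrial iron importer Slc25a28 (1.34 ± 0.11), Ftl1 (0.92 ± 0.08) and Fbxl5 (0.72 ± 0.07), as log2 differences ± SE. Thus Ftl1, like Fth1, was higher in number 2 than in number 1, while Slc40a1 was lower there. In number 3 against number 1 they included Me1 (malic enzyme 1, -1.21 ± 0.08), Idh1 (-0.93 ± 0.09), Slc7a11 (-0.85 ± 0.10), Ephx1 (-1.31 ± 0.17), G6pdx (-0.60 ± 0.11), Pgd (-0.50 ± 0.09), Sqstm1 (0.73 ± 0.10) and Gstm1 (0.76 ± 0.12). The 5 NADPH-supplying enzymes that differed between those 2 numbers were all lower in number 3, as Hmox1 was. In number 3 against number 2, Me1 (-1.68 ± 0.08), Ephx1 (-2.04 ± 0.17), Slc25a28 (-1.35 ± 0.11), Fbxl5 (-1.07 ± 0.07) and Aifm2 (-0.995 ± 0.10) were lower, and Sqstm1 (1.73 ± 0.10), Slc7a11 (1.63 ± 0.12) and Blvra (1.60 ± 0.12) were higher. Ftmt (mitochondrial ferritin) and Heph (hephaestin) were at 0 in every library.

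Likeness to Hmox1 over the 12 libraries was ranked among 10857 genes averaging 50 or more normalized counts. The 3 whose log2 values followed it most closely were Slc37a4 (Pearson r = 0.990), Me2 (0.983) and Grin1 (0.981). Their values were lower in ctrl-EVs library 1 than in the other libraries of that number, which comes with picking them by likeness to Hmox1. For Tfrc the 3 closest genes were Clic4 (0.977), Hnrnpu (0.969) and Elk4 (0.967). These libraries fall into 3 numbers of 4, so the correlations are descriptions of a shared pattern over numbers and carry no p.

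Sequence shared with other genes was rare. Of the 31-base stretches of the main transcript, none was shared with another gene for 8 of the 10 members, 0.0719% for Srxn1 and 12.9% for Fth1, whose 3 gene copies had at most 31 counts in a library against at least 27157 for Fth1. In the annotation Gclm overlaps the pseudogene Gm6061, and Txnrd1 overlaps Eid3, on the same strand.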

How the data were processed

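The authors made stranded libraries of polyadenylated RNA, sequenced read pairs and quantified them with Salmon against Ensembl mouse cDNA and noncoding RNA. The deposited files give, per transcript, estimated counts, which need not be whole and are not normalized between libraries, and TPM values, scaled by Salmon to the same sum per library. Use of strand in the assignment is not given in the sources used here, and a build list in the labels reads GRCh38 although the transcripts are mouse. Transcripts were matched to GENCODE vM21 (GRCm38) by identifier (98.2% of 118783 matched), and estimated counts were summed to genes and rounded. Mean transcript lengths entered as an offset. DESeq2 1.42.0 (R 4.3.3) tested the 13906 genes that reached 10 counts in 3 or more of the 12 libraries, with Benjamini-Hochberg adjusted p under 0.05 called. The study's methods name DESeq2 and give no design. Treatment was fitted here without a block and again with it, and number comparisons with group as a covariate, 4 libraries per number. Normalized counts are counts divided by size factors and length offset. Alternatives were edgeR 4.0.16, TMM scaling, no length offset, no count filter, single libraries left out, no libraries numbered 2 and no group term. Scripts were tested on simulated data.

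Same-numbered libraries of different groups deviated together from their group means in all 18 pairs (r from 0.458 to 0.827), against -0.661 to 0.243 for 36 pairs of different numbers, so the numbers were taken to pair the libraries. No 2 libraries of a group agreed within counting noise. The members and the gene lists were chosen with earlier results of these data known, and the tests of miR-EVs within a number were added after seeing them. All 10 members, all list genes called with or without the block, and the 10 list genes with the lowest p at a mean of at least 50 normalized counts where more than 20 were called, were named. A count of 3 (0.131 to 0.184 CPM) was taken as the floor, which covers counting error only. Columns of the authors' comparisons were not used.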

Additional observations from a re-analysis of the deposited data

Results flagged for a closer look

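The difference of Hmox1 between the miR-EVs libraries and the single ctrl-EVs library of their number was unequal between numbers (adjusted p = 1.21e-11, DESeq2), with miR-EVs higher for number 1 and lower for number 3. This test was added after the values were seen, and a response that differs and a control library that stands apart cannot be told apart by it. Beside that, each gene's 4 libraries of 1 number were examined for a library that lies far from the other 3, relative to their range, in 27 sets of 4. Of these 5 had such a library, each time that of ctrl-EVs. The gap divided by the whole range was 0.848 for Hmox1 and 0.844 for Txnrd1 in ctrl-EVs library 1, which was below the others, with 3795 normalized counts of Hmox1 against 6760 to 7294 and 2713 of Txnrd1 against 3394 to 3519. In ctrl-EVs library 3 it was 0.840 for Keap1 (1832 against 1622 to 1656), 0.925 for Fth1 (62327 against 49534 to 50496) and 0.873 for Tfrc (2394 against 2759 to 2812). The cutoff is one that about 1 set in 20 would pass by chance if its 4 values were independent and normal. Each set here holds 1 control and 3 miR-EVs libraries, and the 27 sets reuse the same controls, so that rate does not apply to them. The cause was not tested.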

How the results depend on the processing

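The libraries numbered 1, 2 and 3 were taken as pairs, and adding the replicate block raised the genes called over all 13906 tested to 8 in miR-142-5p-EVs, 57 when comparing miR-183-5p-EVs, 4 with miR-222-3p-EVs, 14 for any difference among the 4 groups and 227 for all miR-EVs, without calling a member. With the block and no length offset, chosen after the data were seen, the counts in the same order were 4, 32, 6, 3 and 152. Without the 4 libraries numbered 2, in a fit that had no block, they were 2, 5, 3, 6 and 28. The fit of all 12 libraries without the block had 1, 0, 0, 1 and 0. edgeR called 0 genes in each of these 5 comparisons, with the block and without it, so that none of the 57 and 227 calls above was made by it. At an unadjusted p under 0.05 it had, in the same order, 63, 92, 66, 38 and 166 genes, and 893, 1491, 986, 691 and 1868 with the block. For the difference of the change among numbers edgeR called 451 genes, and TMM scaling called 2 members.

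Leaving out 1 library at a time, with or without the block, gave 0 to 60 genes in miR-142-5p-EVs, 0 to 221 when comparing miR-183-5p-EVs, 0 to 90 with miR-222-3p-EVs, 0 to 57 for any difference among the groups and 0 to 468 for all miR-EVs. Members called ranged from 0 to 1 for miR-183-5p-EVs, 0 to 1 for miR-222-3p-EVs, 0 to 1 for any difference among the groups and 0 to 2 for all miR-EVs. Number 3 against 1 gave 1892 to 3747 genes, most without ctrl-EVs library 3. The difference of the change among numbers gave 766 to 1786 genes and 1 to 3 members. Within number 1, Nfe2l2 and Fth1 were called without miR-183-5p-EVs library 2 (log2 difference -0.29, adjusted p = 0.0452, and -0.25, adjusted p = 0.0372, DESeq2). Gclm was called without the length offset, for number 3 against 1 (-0.26, adjusted p = 0.0158) and against 2 (-0.21, adjusted p = 0.0334). No result turned its direction past the threshold in the alternatives run. The causes were not tested. Depth limits Nqo1, which could not be tested, and each number holds a single control library.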
